A study of Mus musculus with 2 samples.

Results

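The Bcl-2 family decides whether a stressed cell keeps its mitochondria intact, and 10 of its genes were followed here in natural killer (NK) cells of the mouse liver. The members were every gene named on the list Bcl2, Bcl2l1, Mcl1, Bax, Bak1, Bcl2l11, Bid, Bad, Bbc3 and Pmaip1, read through all probe sets annotated to exactly 1 of these symbols. Of the 10 genes, 9 had such a probe set. Together they held 29 of the 45101 probe sets of the array, and they were 9 of 18193 named genes. No probe set was listed for Bax alone, so Bax is not analysed here.

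The samples were DX5- NK cells and DX5+ NK cells, sorted from the livers of untreated B6 wild-type mice as NK1.1+ CD3- lymphocytes. The antibody DX5 binds the integrin alpha 2 chain, and its binding is the difference between the sorts. Each population was hybridised to 1 Affymetrix array, so n = 1 in each group, and the sources used here give neither the age of the mice nor how many were pooled. Without replicates no ratio could be tested, and every fold below describes these arrays.

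Proteins of the family share short Bcl-2 homology (BH) regions and fall into 3 roles. Anti-apoptotic proteins hold the effectors Bax and Bak in check at the mitochondrial outer membrane. BH3-only proteins are induced or activated by stress or by loss of growth factor and bind the anti-apoptotic proteins or the effectors; once freed, the effectors open the membrane and cytochrome c activates caspases. NK cells depend on interleukin 15 (IL-15) for survival, and in mice Mcl-1 and Bcl-2 are the family members chiefly tied to that signal, with Bim, the product of Bcl2l11, working against them.

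Values are MAS5 intensities, a linear brightness per probe set, and each log2 ratio sets DX5- over DX5+. A probe set was read where it reached the 95th percentile of 151 probe sets for genes presumed silent in these cells, namely 76.0 units for DX5- and 82.25 units for DX5+. Of the 29 member probe sets, 24 passed it for both populations, 1 for DX5- alone and 4 for neither. Over all probe sets the median intensity was 70.3 for DX5- and 78.0 for DX5+. All 18 spike-in controls read lower beside DX5- RNA, by a median of -0.22 on the log2 scale. The spread of the log2 ratio between probe sets of the same gene was the available measure of noise. Its SD was 0.34 over 4396 genes, 0.43 among the dimmest of 5 equal groups of them and 0.23 among the brightest. This SD covers probe noise and leaves out differences between mice, sorts and labellings.

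Bcl2l11 was lower in DX5- cells on all 5 of its probe sets, and Pmaip1 was lower on its probe set. Bcl2l1 was higher on both probe sets that could be read. Mcl1 differed little on 6 probe sets, and Bcl2 gave opposite answers on different probe sets. With the deposited values 0 of the 9 members were at least 2-fold apart, where 9.41% of 10650 detected genes were, while median centring gave 1 such member and spike-in scaling 2.

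**Figure D1:**
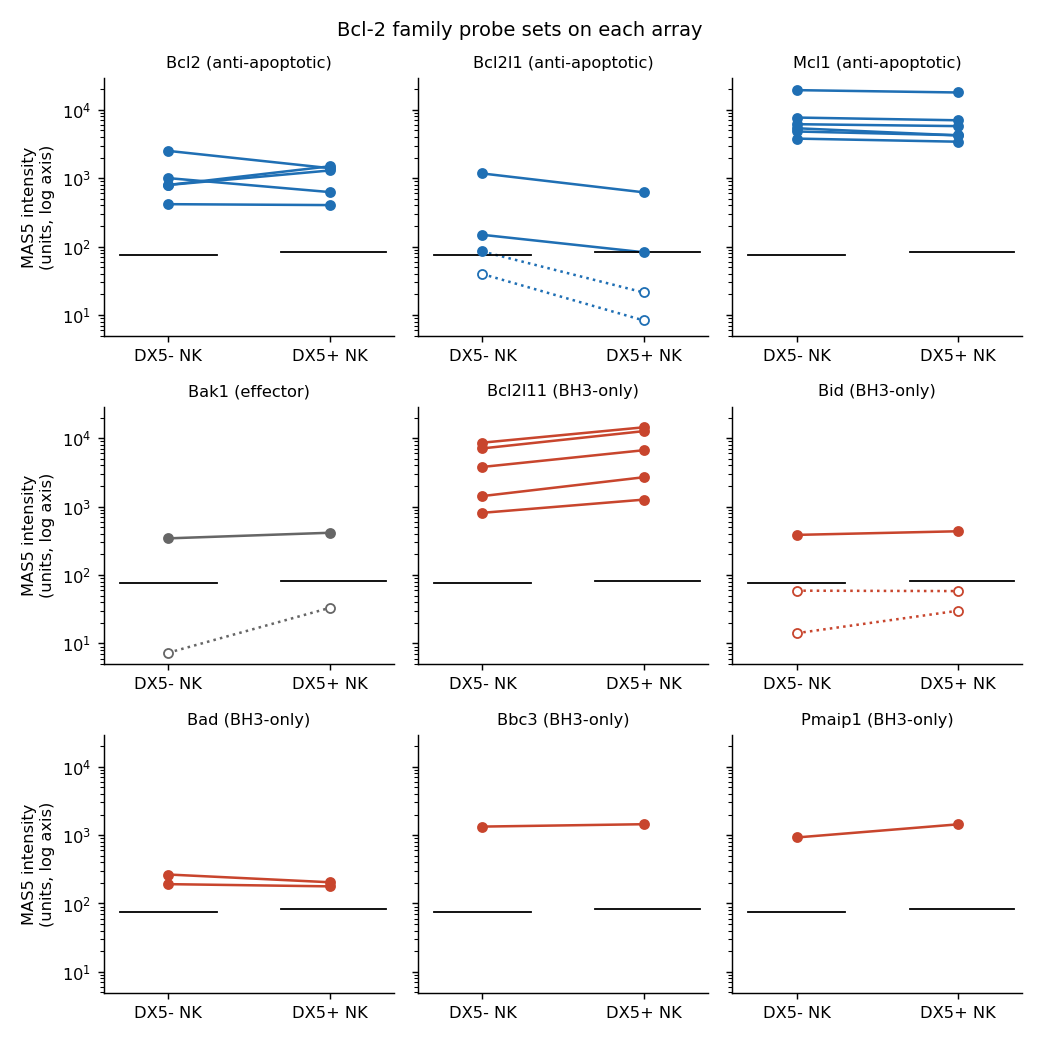
MAS5 intensity (log axis) of every member probe set on the DX5- array (left) and the DX5+ array (right), 1 line per probe set and 1 panel per gene; black bars mark the detection limits of 76.0 and 82.25, open circles lie below them, and dotted lines join probe sets not read on both arrays. All 5 Bcl2l11 lines are higher at DX5+, the 6 Mcl1 lines are nearly flat, and the Bcl2 lines cross.

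Among the anti-apoptotic genes, Mcl1 encodes a short-lived protein that must be made continuously. Its brightest probe set, 1448503_at, read 19366 in DX5- cells, against 17895 in DX5+ cells, 1.08-fold higher in DX5- cells (log2 ratio 0.11). The other probe sets read between 3788 and 7695 in DX5- cells and between 3412 and 7018 in DX5+ cells. All 6 were higher in DX5- cells, by log2 ratios from 0.094 to 0.35. As deposited, 5 of the 6 lay within the noise SD of 0.23 for probe sets of this brightness. The log2 ratio of 1448503_at exceeded that SD with median centring (0.26) and with spike-in scaling (0.33). It stayed below the SD with quantile normalization (0.15) and with intensity-dependent centring (0.086).

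Bcl2l1 encodes Bcl-xL and, by alternative splicing, the pro-apoptotic short form Bcl-xS. Probe set 1420888_at gave 1170.5 in DX5- cells and 621 in DX5+ cells, 1.89-fold higher in DX5- cells (log2 ratio 0.92). Probe set 1420887_a_at was far dimmer, at 148 in DX5- cells and 82.5 in DX5+ cells, just above the limit of 82.25, and was 1.80-fold higher. Probe set 1426191_a_at read 84.7 in DX5- cells, against 21.3 in DX5+ cells, which is under the limit. Probe set 1426050_at was below the limit on both arrays, at 39.6 in DX5- cells and 8.3 in DX5+ cells. The bright probe set thus carries the reading for this gene, and which splice form each probe set detects was not tested. Of all 10650 detected genes, 11.4% were at least as far apart as Bcl2l1.

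Bcl2, which gives the family its name, did not have a single direction. Probe set 1457687_at, the brightest by mean, read 2504.5 in DX5- cells, against 1401 in DX5+ cells, 1.79-fold higher in DX5- cells. Probe set 1437122_at pointed the same way, with 1001.5 in DX5- cells and 626 in DX5+ cells, 1.60-fold higher. Probe set 1440770_at pointed the other way, with 796 in DX5- cells and 1489 in DX5+ cells, 1.87-fold lower. Probe set 1443837_x_at did as well, at 795 in DX5- cells and 1294 in DX5+ cells, 1.63-fold lower. Probe set 1422938_at gave 416 in DX5- cells and 404 in DX5+ cells, almost level. The mean log2 ratio over the 5 probe sets was -0.0094 with an SD of 0.79 between them, so the deposited intensities give no direction for Bcl2. The sources used here do not give the part of the transcript that each probe set covers, and differences in transcript ends between the populations were not tested.

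Such disagreement was uncommon on these arrays. The Bcl2 log2 ratios spanned 1.74. Of 223 genes with exactly 5 probe sets above both limits, 8, Bcl2 included, spanned at least as much (3.59%), and the median span was 0.77. In 6 of the 223 genes (2.69%) some probe sets were at least 1.5-fold higher and others at least 1.5-fold lower, as in Bcl2.

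**Figure D2:**
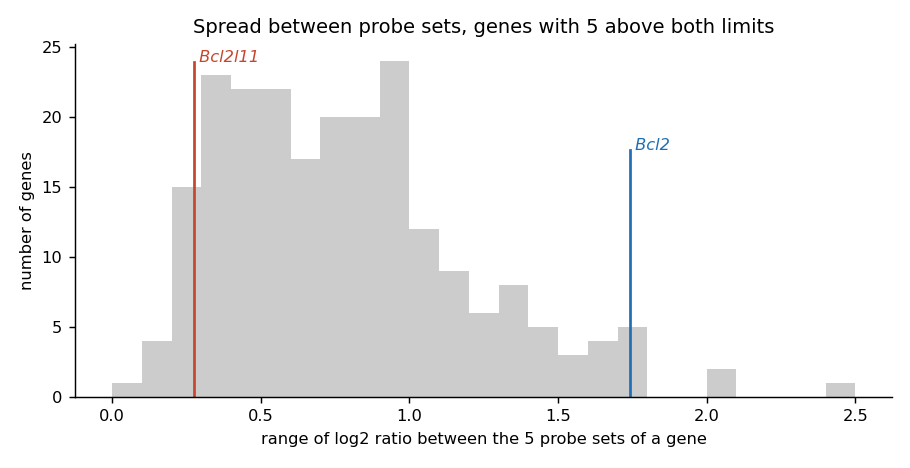
Number of genes (vertical axis) by the range of the log2 ratio between their probe sets (horizontal axis), for the 223 genes with exactly 5 probe sets above both limits. Bcl2 lies in the upper tail at 1.74, and Bcl2l11 near the lower end at 0.27.

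Of the effectors, Bak1 encodes Bak, which sits in the mitochondrial outer membrane and forms pores when activated. Probe set 1418991_at read 343.5 in DX5- cells, against 415 in DX5+ cells, 1.21-fold lower in DX5- cells (log2 ratio -0.27). That difference is smaller than the noise SD of 0.38 at this brightness. Its other probe set, 1425716_s_at, was below the limit on both arrays, at 7.3 in DX5- cells and 33.0 in DX5+ cells. With the mean over both probe sets, the dim one included, Bak1 fell under the limit in DX5- cells and its log2 ratio, a bound, was -0.62.

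The BH3-only genes were led by Bcl2l11, which encodes Bim, a protein that binds every anti-apoptotic member and is held at the cytoskeleton or raised when cytokine is withdrawn. Probe set 1456005_a_at gave 8612 in DX5- cells and 14449 in DX5+ cells, 1.68-fold lower in DX5- cells. Probe set 1435448_at read 7101 in DX5- cells, against 12698 in DX5+ cells, 1.79-fold lower. Probe set 1435449_at gave 3804 in DX5- cells and 6679 in DX5+ cells, 1.76-fold lower. The 3 bright probe sets differed by similar amounts, and the dimmer ones did too. Probe set 1456006_at read 1427 in DX5- cells, against 2689 in DX5+ cells, 1.88-fold lower. Probe set 1426334_a_at gave 812 in DX5- cells and 1265 in DX5+ cells, 1.56-fold lower. The 5 log2 ratios averaged -0.79 with an SD of 0.10 between probe sets, and they spanned 0.27, a span that 13 of the 223 genes with 5 probe sets did not exceed (5.83%, Bcl2l11 included). Each of the 5 lay beyond the noise SD for its brightness. The probe sets measure the same RNA, so their closeness concerns the reading on these arrays and leaves the spread between mice unmeasured.

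Pmaip1 encodes Noxa, which binds Mcl-1 and is a target of the tumour suppressor p53. It had 1 probe set, 1418203_at, with readings of 923 in DX5- cells and 1436 in DX5+ cells, 1.56-fold lower in DX5- cells (log2 ratio -0.64). This was the other BH3-only gene past 1.5-fold, and no further probe set bears on it. Bbc3 encodes Puma, another p53 target. Probe set 1423315_at read 1331 in DX5- cells, against 1442 in DX5+ cells, 1.08-fold lower, a log2 ratio of -0.12 against a noise SD of 0.32, and its sign turned with median centring (0.033) and with spike-in scaling (0.10).

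Bid, which caspase-8 or granzyme B cleaves to link death receptors and killer granules to mitochondria, was read on 1 of 3 probe sets. Probe set 1417045_at gave 386 in DX5- cells and 436 in DX5+ cells, 1.13-fold lower, a log2 ratio of -0.18 that became 0.041 with spike-in scaling. The remaining pair gave 59.0 and 14.1 in DX5- cells and 58.2 and 30.0 in DX5+ cells, all below the limits. Bad, which is silenced by phosphorylation downstream of growth factors, was dim on both of its probe sets. Probe set 1416582_a_at read 265 in DX5- cells, against 204 in DX5+ cells, 1.30-fold higher in DX5- cells. Probe set 1416583_at gave 192 in DX5- cells and 178 in DX5+ cells, 1.08-fold higher. As deposited, the log2 ratios of both genes lay within the noise SD at their brightness. That of Bad ran from 0.11 to 0.59 over 12 alternative settings. It exceeded 0.43, its noise SD, with every other array scaling.

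**Figure D3:**
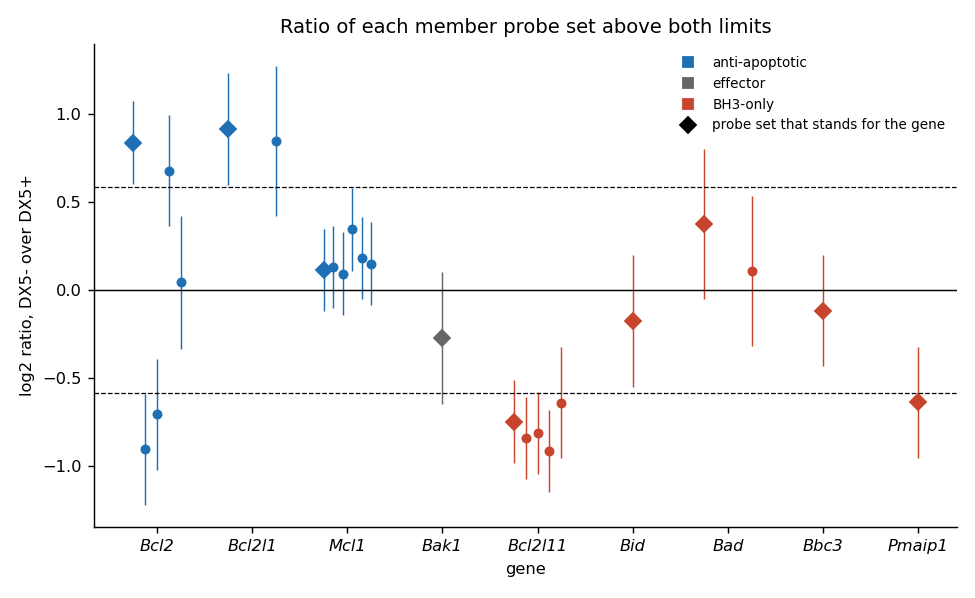
Log2 ratio of DX5- over DX5+ (vertical axis) for each member probe set above both limits, by gene; diamonds mark the probe set that stands for the gene, whiskers are 1 SD of the noise between probe sets at that brightness and not a spread between samples, and dashed lines mark 1.5-fold. The Bcl2l11 points cluster between -0.91 and -0.64, and the Bcl2 points lie on both sides of 0.

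Each gene was then represented by its probe set of highest mean log2 intensity and set against all named genes. Among all detected genes, 3.76% passed 2-fold upwards and 5.65% downwards in DX5- cells, and 0 members did either. At least 1.5-fold apart were 4 of 9, against 24.9% of detected genes. Higher in DX5- cells by that measure were Bcl2l1 and Bcl2 (10.8% of all genes were), and lower were Bcl2l11 and Pmaip1 (14.1% were). The count for Bcl2 rests on the choice of probe set: with the mean over probe sets, or the probe set with the largest ratio, 1 member was at least 1.5-fold higher. The median log2 ratio over the 9 members was -0.12, close to the -0.016 over all detected genes, and their mean was 0.033, of the opposite sign. All 9 members passed the limit on both arrays.

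By probe set, 4 of the 24 read on both arrays were at least 1.5-fold higher in DX5- cells (10.9% of 17005 probe sets on the array were), and 8 were at least 1.5-fold lower (13.3% were). Of those 8, Bcl2l11 supplied 5, Bcl2 supplied 2 and Pmaip1 supplied 1, so the count is not one of 8 separate genes. Scaling the arrays to the spike-in controls moved all detected genes up, to a median of 0.19. Under that scaling 0 members were at least 1.5-fold lower, with Bcl2l11 at -0.53 and Pmaip1 at -0.42, and Bcl2 and Bcl2l1 passed 2-fold. With Bad, at 0.59, 3 members were then at least 1.5-fold higher.

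**Figure D4:**
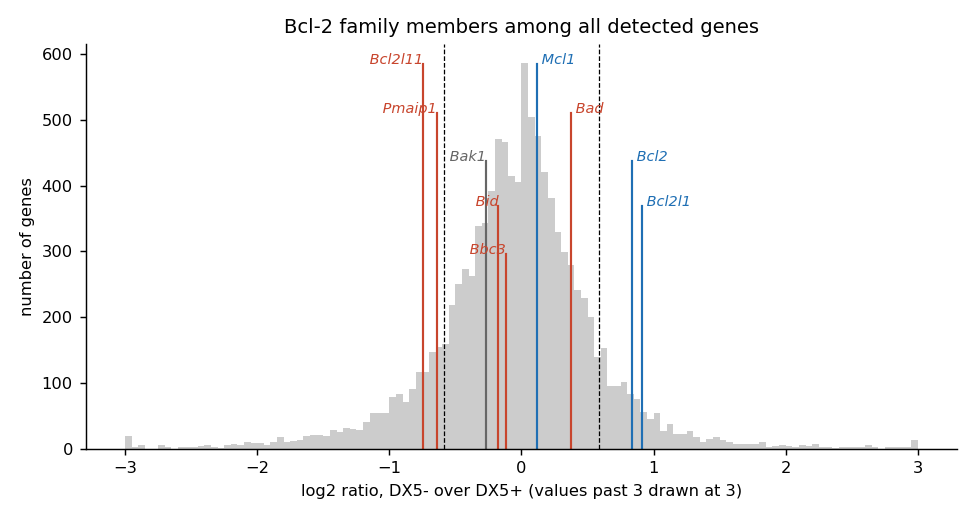
Number of detected genes (vertical axis) by log2 ratio of DX5- over DX5+ (horizontal axis, values past 3 drawn at 3), with coloured lines at the 9 members (blue anti-apoptotic, grey effector, red BH3-only) and dashed lines at 1.5-fold; bounds on the wrong side were placed at 0 and add to that bar. Bcl2l11 and Pmaip1 lie left of the dashed line and Bcl2 and Bcl2l1 right of it, and 5 members lie between.

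The promoters of the members are shown where the letters bear on a known regulator. FOXO transcription factors, which IL-15 and other growth signals restrain through the kinase Akt, are known to switch on Bcl2l11 and Bbc3. The 250 bases before each annotated start site were read from RefSeq (GRCm38.p6), giving 15 windows for 9 of the 10 members, Bax included and Pmaip1 left out. They were searched on both strands for the FOXO core GTAAACA. It occurred in 1 window of Bcl2l11 and 1 window of Bbc3, printed here with the core in capitals, and in 3.17% of 32851 windows of all genes.
Bcl2l11, upstream start site, chr2:128125788-128126037, plus strand: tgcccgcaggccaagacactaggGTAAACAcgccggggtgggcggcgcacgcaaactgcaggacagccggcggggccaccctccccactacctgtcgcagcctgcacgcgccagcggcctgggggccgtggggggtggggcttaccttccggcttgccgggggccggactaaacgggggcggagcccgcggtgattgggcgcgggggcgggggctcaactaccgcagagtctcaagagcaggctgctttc
Bbc3, middle start site of 3, chr7:16310011-16310260, plus strand: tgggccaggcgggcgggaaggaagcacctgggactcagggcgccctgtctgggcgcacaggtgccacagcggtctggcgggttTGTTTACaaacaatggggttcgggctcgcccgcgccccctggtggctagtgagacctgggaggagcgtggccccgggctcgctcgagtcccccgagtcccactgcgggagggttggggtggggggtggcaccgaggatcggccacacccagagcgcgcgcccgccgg
The match in Bcl2l11 began 227 bases before the start site, on the coding strand. The match in Bbc3 began 167 bases before its start site and lay on the opposite strand, so it reads TGTTTAC above. The genes that share this match differed on the arrays, with log2 ratios of -0.75 for Bcl2l11 and -0.12 for Bbc3. The STAT motif TTCNNNGAA was in 0 of the 15 windows and in 7.02% of all windows. No match says only that these letters are not in these windows. Also searched were the GC box GGGCGG and the E-box CACGTG, found in 32.7% and 6.02% of all windows. The GC box was in all member windows but those of Bcl2l1 and Bak1 and the downstream window of Bad. The E-box was in the window of Bax and the last window of Bbc3. The middle and last windows of Bbc3 overlap, so not all 15 are separate sequences.

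The rest of the pathway was read from 7 lists holding 77 genes, of which 67 had a probe set of their own and 59 were detected. Of the 59, 4 exceeded 2-fold in favour of DX5- cells and 3 in favour of DX5+ cells, 11.9% against 9.41% of all detected genes, and their median log2 ratio was 0.0013. The genes past 2-fold lay upstream or downstream of the family: Pim3, Birc2, Jak3 and Pim2 were higher, and Fbxw7, Stat5a and Stat5b were lower.

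Transcripts of IL-15 signalling genes were split, and signalling itself was not measured. Il2rg, which encodes the common gamma chain, had no probe set of its own. Of 6 detected genes 1 passed 2-fold upwards in DX5- cells and 2 downwards (median log2 ratio -0.19). Stat5a, a transcription factor activated by the IL-15 receptor, read 782 in DX5- cells, against 1822 in DX5+ cells, 2.33-fold lower in DX5- cells. Stat5b, its close paralogue, gave 748 in DX5- cells and 1650.2 in DX5+ cells, 2.21-fold lower, and its other probe set had a log2 ratio of -0.51. Cross-hybridisation between these paralogues was not tested. Jak3, the kinase bound to the common gamma chain, read 419 in DX5- cells, against 206 in DX5+ cells, 2.04-fold higher. The receptor chain Il2rb, which IL-2 and IL-15 share, gave 12977 in DX5- cells and 13955 in DX5+ cells, and was picked with its value known, as were Pim1 and Cycs further on. The 2 Il2rb probe sets had log2 ratios of -0.10 and 0.18.

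Among 11 detected genes that act on Mcl-1, Bad or Bim proteins, 2 passed 2-fold upwards and 1 downwards in DX5- cells (median 0.16). The Pim kinases, targets of STAT5 that phosphorylate Bad, were higher in DX5- cells. Pim3 read 11831 in DX5- cells, against 4229 in DX5+ cells, 2.80-fold higher, and Pim2 gave 1302 in DX5- cells and 644 in DX5+ cells, 2.02-fold higher. Pim1 read 20935 in DX5- cells, against 15791 in DX5+ cells, 1.33-fold higher. Fbxw7, the substrate-binding part of a ubiquitin ligase for Mcl-1, gave 1265 in DX5- cells and 3201 in DX5+ cells, 2.53-fold lower, with both probe sets lower.

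In the other lists most genes were within 2-fold. Of 12 detected genes of the apoptosome, the caspases and their inhibitors, 1 passed 2-fold upwards and 0 downwards (median -0.054). It was Birc2, which encodes the inhibitor of apoptosis cIAP1, with 6943 in DX5- cells and 3325 in DX5+ cells, 2.09-fold higher. Cytochrome c, from Cycs, read 15332 in DX5- cells, against 15318 in DX5+ cells. Of 7 death receptor genes 0 passed 2-fold in either direction (median -0.24). The adaptor Fadd gave 197 in DX5- cells and 346 in DX5+ cells, 1.76-fold lower, and the receptor Tnfrsf1a read 2742 in DX5- cells, against 1706 in DX5+ cells, 1.61-fold higher.

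Genes tied to p53 are of interest beside Pmaip1 and Bbc3. Of 12 detected, 0 passed 2-fold in either direction, while 1.5-fold was passed by 2 upwards and 0 downwards in DX5- cells (median 0.17). Over all detected genes 10.8% passed 1.5-fold upwards and 14.1% downwards, so these counts are small numbers near that background. Trp53, the gene for p53, had no probe set of its own. Cdkn1a, the cell cycle inhibitor p21, gave 10237.5 in DX5- cells and 5676 in DX5+ cells, 1.80-fold higher, and Zmat3 read 272 in DX5- cells, against 162 in DX5+ cells, 1.68-fold higher. Some targets lay on the same side as Pmaip1, with log2 ratios of -0.57 for Perp, -0.49 for Aen and -0.35 for Sesn1. The p53 inhibitor Mdm2 did as well, at -0.34. Further targets lay on the opposite side, at 0.51 for Sesn2, 0.50 for Trp53inp1, 0.41 for Ccng1 and 0.31 for Btg2. Phlda3 (-0.022) was almost level. Mdm4 was level on its brightest probe set (0.026), but its other probe set above both limits stood at 0.70. Probe sets also differed for Ccng1 (-0.21 to 0.41), Sesn2 (-0.011 to 0.51) and Btg2 (0.31 to 0.98). Apart from Cdkn1a and Zmat3, these genes were named after their values were seen. Of 5 other transcription factors of BH3-only genes, 0 passed 1.5-fold (median 0.065, mean -0.017). E2f1 gave 87.6 in DX5- cells and 126.5 in DX5+ cells, and Ddit3, a factor of the unfolded protein response, read 6871 in DX5- cells, against 5549 in DX5+ cells. Foxo3 gave 2546 in DX5- cells and 2433.5 in DX5+ cells, and Foxo1 read 7008 in DX5- cells, against 7749 in DX5+ cells, a pair chosen with its values already seen. All 3 probe sets of Foxo3 were higher in DX5- cells, by log2 ratios from 0.065 to 0.99. Of the 4 Foxo1 probe sets, 3 were above both limits, and all 3 were lower, from -0.42 to -0.14.

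Of 16 further Bcl-2 family genes 11 had a probe set of their own and 6 were detected, with 0 past 2-fold (median 0.26). Bnip3 gave 212.5 in DX5- cells and 357 in DX5+ cells, 1.68-fold lower. Bik, a BH3-only gene, read 125 in DX5- cells, against 76.4 in DX5+ cells, where it missed the limit, at least 1.52-fold higher. Bmf, whose BH3-only protein binds the cytoskeleton as Bim does, gave 951 in DX5- cells and 1366 in DX5+ cells, 1.44-fold lower, and was chosen after its values were seen.

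The anti-apoptotic Bcl2a1 genes, a cluster of near-identical copies that encode A1, have no probe set of their own and stand outside these counts. Their shared probe sets were looked at after the other values were known. Probe set 1419004_s_at, annotated to 3 of the copies, read 16939 in DX5- cells, against 6907 in DX5+ cells, 2.45-fold higher in DX5- cells. Probe set 1437913_at, annotated to the same 3, gave 516 in DX5- cells and 112.5 in DX5+ cells, 4.59-fold higher. A shared probe set, 1450812_at, which lists 4 copies, was below the limit on both arrays, at 6.9 in DX5- cells and 16.8 in DX5+ cells. Values of this kind belong to the group of copies and cannot be divided among them.

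**Figure D5:**
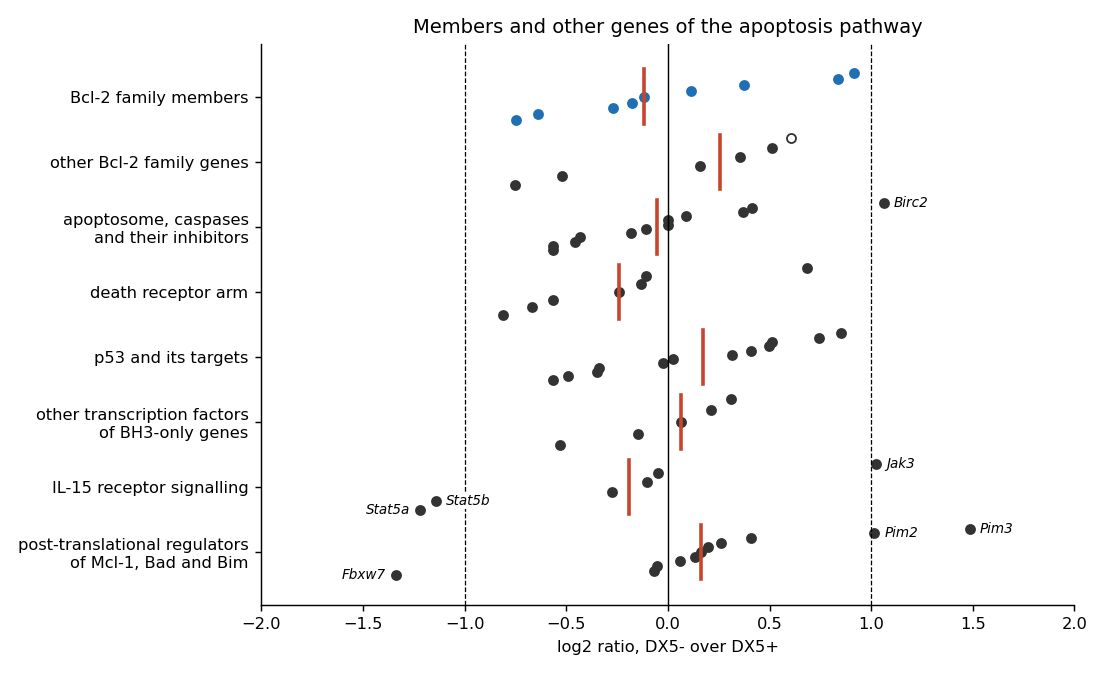
Log2 ratio of DX5- over DX5+ (horizontal axis) for each detected gene, by list (rows); red bars are list medians, the open circle is a bound, dashed lines mark 2-fold, and genes past 2-fold are named. The members in blue stay inside the dashed lines, and the 7 genes outside them belong to the apoptosis inhibitor, IL-15 and protein regulator lists.

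Other liver and blood cells that a sort can hold express this family too, so their markers are given beside it; fewer cells of a type and less RNA per cell cannot be told apart in such samples. Markers of platelets, which rely on Bcl-xL, were lower in DX5- cells. The 6 of them summed to 1060 in DX5- cells and 5606 in DX5+ cells, 6 of 6 at least 2-fold lower. Gp9 and Gp1bb, named after their values were seen, were under the limit in DX5- cells, so their folds were bounds. The Gp1bb probe set read on both arrays had a log2 ratio of only -0.46. Neutrophils rely on Mcl-1 and A1, and their 5 markers with a probe set summed to 4507 in DX5- cells and 9556 in DX5+ cells, 3 at least 2-fold lower and Mmp9 4.74-fold higher. Of 8 macrophage markers 3 were detected and 2 of them, Lyz2 and Csf1r, were at least 2-fold lower. For Csf1r the fold was a bound, and its probe set read on both arrays had a log2 ratio of only -0.21. All 8 markers summed to 519 in DX5- cells and 1533 in DX5+ cells. Of these, Clec4f, C1qa, C1qb, Timd4 and Cd163 were below the limits on both arrays.

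Most T cell markers went the other way, although both sorts were gated as CD3-, a gate that removes T cells. The 7 with a probe set summed to 25054 in DX5- cells and 10577 in DX5+ cells. Of 6 detected genes 4 were at least 2-fold higher, Cd3g among them (13.1-fold, 14036 in DX5- cells and 1072 in DX5+ cells). For Cd8a the fold was a bound, and its probe set read on both arrays had a log2 ratio of 0.75. Cd28 was slightly lower, with 7668 in DX5- cells and 8442 in DX5+ cells. Cd8a and Cd28 were named after their values were seen. Cd4 was below the limits on both arrays. Dendritic cell markers (4 of 5 detected, 1 at least 2-fold lower) summed to 6446 in DX5- cells and 5232 in DX5+ cells. Their median log2 ratio was -0.60. Only Itgax, named after its value was seen, was higher among those detected, at 5739 in DX5- cells and 3971 in DX5+ cells. Hepatocyte markers (3 of 4 detected, 1 at least 2-fold lower) summed to 1204 in DX5- cells and 1922 in DX5+ cells, and B cell markers (3 of 4 detected, 0 past 2-fold) to 1001 in DX5- cells and 706 in DX5+ cells. The 7 NK cell markers summed to 109668 in DX5- cells and 112509 in DX5+ cells. Prf1 was 2.89-fold lower in DX5- cells, but its other probe set had a log2 ratio of only -0.27. Klre1 went the opposite way, 1.83-fold higher, as did Klrd1 (1.71-fold), which was named after its value was seen. The remaining 4 markers stayed within 1.5-fold. The part of these cells in the member ratios was not tested.

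Mcl1 and Pmaip1 also respond quickly to stimulation and handling, as immediate early genes do. Of 12 immediate early genes 6 passed 2-fold upwards and 0 downwards in DX5- cells (median 0.92), led by Junb, with 17757 in DX5- cells against 6117 in DX5+ cells, and Egr2, with 2275 in DX5- cells against 899 in DX5+ cells. Over the same arrays Mcl1 was 1.08-fold higher and Pmaip1 1.56-fold lower, and the part of handling in either was not tested.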

How the data were processed

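The deposited values, 1 linear intensity for each probe set on each array, were made by the authors with MAS5, per the submitters' processing notes; the sources used here give no version or settings. The mean intensity without the lowest and highest 2% of probe sets was 500.0 on both arrays, so they share a scaling target. Detection calls were not used here, and the number of arrays limits the precision.

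Probe sets were named from the platform's annotation table. Of the 45101 probe sets, 34958 had 1 gene symbol, 932 had several and 9211 had none; 34754 matched RefSeq (GRCm38.p6) by gene identifier and 0 were renamed. Log2 ratios used the deposited intensities without offset (Python 3.11.15, pandas 2.3.3). The detection limit came from olfactory, vomeronasal and taste receptor, keratin-associated, lens crystallin and opsin genes. The Crybg genes, no lens crystallins, were left out after 1 of them was seen to be bright. Genes under both limits were dropped; under 1 limit, the value was set to the limit and the fold is a bound.

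Named genes were all members, pathway genes at least 2-fold apart or otherwise the 2 with the largest ratio per list, and from lists of other cells up to 2 with the largest ratio, besides markers below the limits; Il2rb, Pim1, Cycs and the genes marked so in the text were chosen after their values were seen. Members, lists and rules were chosen with earlier results of these data known. The steps were tested on simulated data. Scaling, detection limit, pseudocount and choice of probe set were varied.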

Additional observations from a re-analysis of the deposited data

How the results depend on the processing

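No paired analysis was possible because each population had 1 array, and for the same reason no replicate could be left out. Bcl2 turned from a log2 ratio of 0.84 to -0.0094 with the mean over probe sets and to -0.90 with the probe set of the largest ratio, because its probe sets disagree. Bcl2l11 stayed between -0.91 and -0.53 and Pmaip1 between -0.64 and -0.42 under all 12 alternatives, Bcl2l1 between 0.82 and 1.13 and Mcl1 between 0.086 and 0.35. The signs of Bid and Bbc3 turned with array scaling, and the member median ran from -0.18 to 0.10. Members at least 1.5-fold higher numbered 2 as deposited and 1 with the mean over probe sets or the largest ratio. With spike-in scaling they numbered 3, which adds Bad at 0.59. Members at least 1.5-fold lower numbered 2 as deposited, 1 with median centring, 0 with spike-in scaling and 3 with the mean over probe sets (which adds Bak1, at -0.62) or the largest ratio (which adds Bcl2). Member probe sets at least 1.5-fold lower numbered 8 as deposited, 5 with median centring and 4 with spike-in scaling. Members at least 2-fold apart numbered 0, 1 and 2 under the same 3 settings. These scalings moved the median of all detected genes from -0.016 to 0.12 and 0.19, and the share of 2-fold calls that were higher in DX5- cells from 39.9% to 56.5% and 64.0%.

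Of the other pathway genes, 4 were at least 2-fold higher and 2 with 100 units added; 3 were at least 2-fold lower, 6 with no limit and 5 with the largest ratio. Over all genes 400 were at least 2-fold higher and 602 lower. With spike-in scaling these counts were 698 and 393, with no limit 1888 and 2838, and with 100 units added 253 and 350. The limit with the Crybg genes, added after the data were seen, moved none of these counts by over 1.5 times. The dim Bcl2l1 probe sets 1420887_a_at and 1426191_a_at lie near the limit, and the noise SD was largest among dim genes. With the Crybg limit or the 99th percentile, 1 Bcl2l1 probe set was read on both arrays, and with no limit 4 were. All of them were higher in DX5- cells.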
